A study of Homo sapiens with 6 samples.

Results

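Genes whose symbols end in -IT or -OT and a number are named after another gene. An -IT gene is an intronic transcript, lying on the same strand inside the gene that gives it its name, and an -OT gene is an overlapping transcript of the gene it is named after. Members were taken by symbol alone, a rule that uses no measured value but was chosen with earlier results of these data known. Of the 60664 rows of the count table, 144 qualified, 128 of them -IT and 16 -OT. They carry 143 symbols, since KBTBD11-OT1 stands for 2 rows, and are named after 135 genes, called hosts here. The cells were U-2 OS, an established human osteosarcoma line, transfected with a control siRNA (siCTRL) or with siRNA against SFPQ (siSFPQ, 30 nM), with 3 biological replicates of each, giving 6 poly(A) RNA libraries. No other treatment or genotype distinguished the groups, both groups received transfection reagent and siRNA, and 1 cell line was used, so that no result extends to other cells.

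Introns are cut out of a nascent RNA by splicing, and the excised RNA is normally debranched and degraded within the nucleus. Poly(A)-selected RNA therefore holds few reads from introns. Those it does hold come from RNA that was not yet spliced, from RNA that was cleaved and polyadenylated within an intron, or from a separate transcript with its own start and end. Counts on an -IT gene are a readout of RNA inside the intron in which it lies, whichever of these gave rise to it, because the count table names a place and not the start of the molecule. SFPQ is an abundant nuclear protein of the DBHS family that binds RNA and DNA, is an essential part of paraspeckles, and has known roles in transcription and splicing. The comparison asks how RNA counted inside these introns differs between SFPQ-depleted and control cells, and whether it follows the host.

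By position, 132 of the 144 genes lay entirely inside the host on its strand, 9 overlapped it on the same strand, 1 (WARS2-IT1) was inside on the other strand and 1 copy of KBTBD11-OT1 lay apart from it. The host of SOD2-OT1 was not matched. Of the 132 inside genes, 123 shared no exonic base with the host and 119 fell within a single gap between host exons. The members were 140 lncRNA genes, 2 protein-coding genes and 2 of the class TEC, for transcripts that await experimental evidence. Their exons summed to 208 to 17599 bases, with a median of 606, and the hosts were long, with a median span of 209.72 kb.

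Each library held 43469321 to 47119203 counts over genes. SFPQ had 22338, 23139 and 21753 counts in the siCTRL libraries and 3140, 3863 and 3151 after SFPQ siRNA (log2 fold change -2.73, SE 0.05), so the target's counts matched the labels. Of osteoblast-lineage and matrix markers, SPARC had 86929 to 103194 counts, COL1A1 101230 to 140758, RUNX2 2541 to 2872 and ALPL 128 to 195, whereas COL1A2 (31 to 55 counts), SP7 (0 to 5) and IBSP (0 or 1) were low or near 0. The mesenchymal marker VIM had 42190 to 54334 and rose (log2 fold change 0.32). SPARC and COL1A1 fell (log2 fold changes -0.17 and -0.35), and in each of these genes the groups did not overlap. Of 6 markers of other cell types, CD3E (0 or 1 count) and HBB (0 to 5) were near 0 and EPCAM had 185 to 258 counts in overlapping ranges. PTPRC, of leukocytes, fell from 26, 30 and 39 counts to 12, 14 and 5 (log2 fold change -1.61), and the epithelial genes CDH1 (30 to 92 counts, log2 fold change 0.76) and KRT5 (37 to 86 counts, 0.59) rose. The part of these changes in the counts of the -IT and -OT genes was not tested. In bulk RNA, fewer cells with an RNA and less of that RNA per cell cannot be told apart.

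SFPQ depletion raised the count of 20 -IT and -OT genes and lowered that of 3. AGAP1-IT1 rose 50.2-fold, ZNRF3-IT1 26.2-fold, MAGI1-IT1 12.5-fold and GRK5-IT1 9.73-fold, and of these 4 hosts AGAP1, MAGI1 and GRK5 fell. ALMS1-IT1 went the other way, to 0.283 of its siCTRL level. Testing used edgeR's quasi-likelihood test over all genes with at least 10 counts in total, with Benjamini-Hochberg adjustment over 29022 genes, and a gene was called higher or lower at an adjusted p under 0.05. Only 61 members reached 10 counts; 39 had none in any library and 44 had 1 to 9. Among all tested genes 22.4% were called higher and 22.1% lower, against 32.8% and 4.92% of the 61 members. With the study's added condition of a log2 fold change past 1.5, 19 of the 61 members were higher and 2 lower. The background was 5.54% higher and 4.77% lower. Of these 19, 5 had no siCTRL count, and for 4 of them the bound given below lies under a log2 fold change of 1.5. Every siSFPQ count exceeded every siCTRL count in 23 members and lay below in 6, against 25.9% and 23.5% of all genes.

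The filter bears on these counts. Of the 61 members, 35 had at least 10 counts in both groups. Of these 35, 10 were called higher and 3 lower, beside 22.4% and 22.1% of all tested genes. That background was not recomputed under this filter. Another 14 reached 10 counts in siSFPQ alone, and the other 10 called higher were among them, so they entered the test through the group in which they were high. A further 3 reached 10 in siCTRL alone and 9 only when the groups were added, and none of these was called. The 83 untested members together held 46 counts in siCTRL and 121 in siSFPQ.

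**Figure D1:**
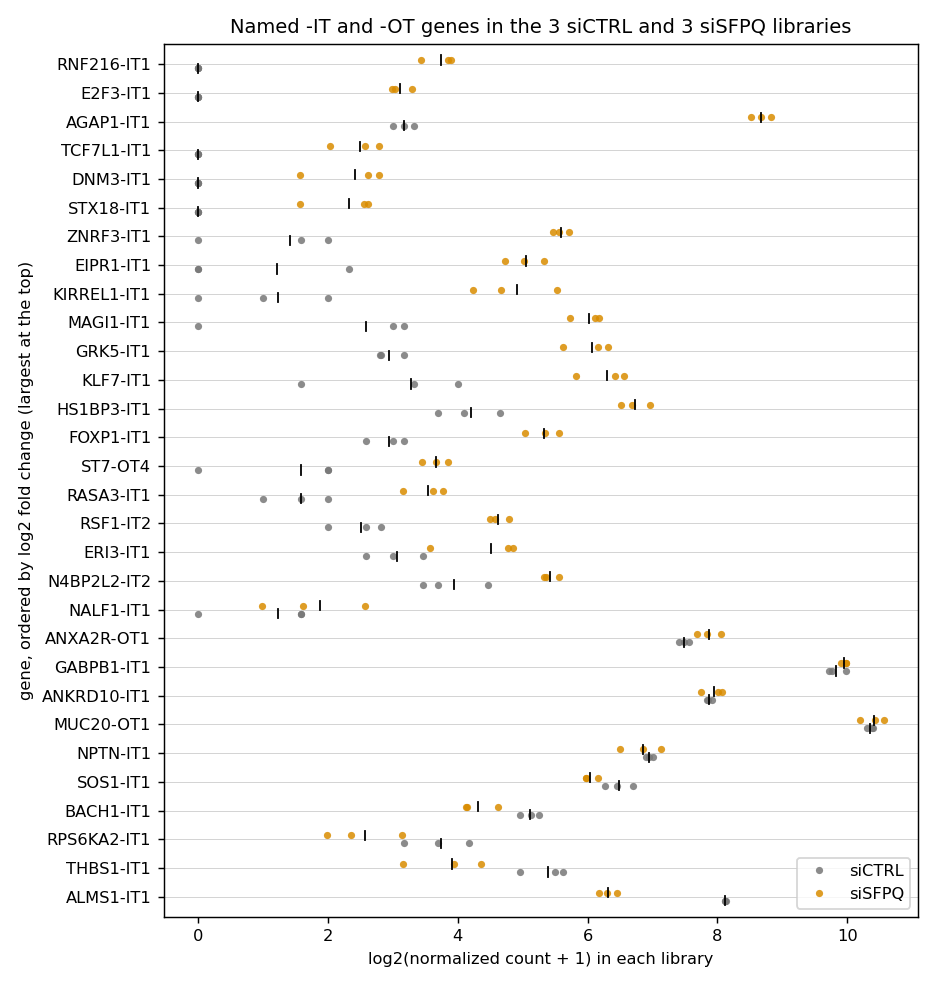
Each row is one of the 30 named genes and each point 1 library, on the log2(normalized count + 1) axis; grey points are the 3 siCTRL and orange points the 3 siSFPQ libraries, and black ticks are the group means. The 5 genes at 0 in every siCTRL library lie among the top 6 rows, AGAP1-IT1 spans the widest gap, and ALMS1-IT1 stands at the bottom.

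The annotated ends of several of these genes are shown first, because a poly(A) signal there can give RNA ending inside an intron its tail. RNA not yet spliced needs no signal at that place. Each sequence is the last 50 bases of the gene's annotation (GENCODE release 44 positions, GRCh38), read 5′ to 3′ on the gene's strand. Capitals mark the poly(A) signal hexamers AATAAA and ATTAAA, searched on that strand only, and overlapping copies run together. The first 5 genes rose and hold a hexamer, the next 2 rose without one, and the last fell.
AGAP1-IT1, chr2:235507517-235507566, plus strand: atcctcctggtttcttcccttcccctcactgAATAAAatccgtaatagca
HS1BP3-IT1, chr2:20590775-20590824, minus strand: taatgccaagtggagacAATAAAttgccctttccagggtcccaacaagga
EIPR1-IT1, chr2:3298341-3298390, minus strand: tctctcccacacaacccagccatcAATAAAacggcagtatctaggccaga
MAGI1-IT1, chr3:65872815-65872864, minus strand: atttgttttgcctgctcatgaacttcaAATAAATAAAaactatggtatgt
KIRREL1-IT1, chr1:158031117-158031166, plus strand: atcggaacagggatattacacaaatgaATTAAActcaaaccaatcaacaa
GRK5-IT1, chr10:119211711-119211760, plus strand: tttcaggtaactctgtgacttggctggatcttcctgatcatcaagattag
ZNRF3-IT1, chr22:29018571-29018620, plus strand: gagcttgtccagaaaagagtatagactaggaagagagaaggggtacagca
ALMS1-IT1, chr2:73459433-73459482, plus strand: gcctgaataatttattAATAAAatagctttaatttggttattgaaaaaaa

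In AGAP1-IT1 the hexamer began 19 bases from the annotated end, in HS1BP3-IT1 33 and in EIPR1-IT1 26. Over the whole set, 6 of the 20 genes called higher (30.0%) held a hexamer in these 50 bases, as did 2 of the 3 called lower and 16 of the 38 not called (42.1%). The share was 41.0% of all 144 members and 46.6% of 16640 other lncRNA genes. A hexamer in this window was thus no more frequent among the members that rose than among the rest. FOXP1-IT1, without a hexamer, ended in a stretch with a run of 13 A within its last 50 bases and the 30 bases that follow. A run of 10 or more A there was found in 1 of the 20 members called higher (5.0%) and 3 of the 38 not called (7.89%). The share was 9.72% of all members and 3.54% of other lncRNA genes.

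AGAP1-IT1 had the largest change not set by zero counts. It lies at chr2:235505553-235507566 on the plus strand, 11.5 kb into AGAP1 and after its first exon, which encodes a GTPase-activating protein for Arf GTPases and spans 638 kb. The siCTRL libraries held 7, 8 and 9 counts and the siSFPQ libraries 441, 414 and 370. Replicates within each group lay close together and the groups far apart. Its log2 fold change was 5.65 (SE 0.19, edgeR adjusted p 1.72e-22). AGAP1 itself went from 4509, 4812 and 4449 counts to 982, 1147 and 977, a log2 fold change of -2.15 (SE 0.05). Every siSFPQ count of the inner gene thus lay above every siCTRL count, and every siSFPQ count of the host lay below.

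GRK5-IT1 (chr10:119208531-119211760, plus strand) begins only 0.96 kb after the start of GRK5, a G protein-coupled receptor kinase gene of 252 kb. It had 8, 6 and 6 counts in siCTRL and 47, 72 and 80 in siSFPQ (log2 fold change 3.28, SE 0.35, edgeR adjusted p 9.99e-10). GRK5 fell from 454, 531 and 484 counts to 59, 84 and 61, a log2 fold change of -2.85 (SE 0.13). In the siSFPQ libraries the 400 exonic bases of GRK5-IT1 thus carried about as many counts as the whole of the host's exons. Another gene inside GRK5 that is no member, the 7SL pseudogene RN7SL749P, 5.29 kb from the host's start, had 8, 5 and 5 counts in siCTRL and 65, 81 and 68 in siSFPQ (log2 fold change 3.54, SE 0.34). It was picked out after its values were seen, and its sequence is close to that of other 7SL copies, so reads could have been shared among them.

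MAGI1-IT1 (chr3:65872815-65954558, minus strand) starts 84.4 kb into the 685 kb of MAGI1, which encodes a scaffold protein of cell junctions. The siCTRL libraries held 0, 8 and 7 counts and the siSFPQ libraries 66, 73 and 53, which did not overlap (log2 fold change 3.64, SE 0.43, edgeR adjusted p 8.53e-09). MAGI1 fell with a log2 fold change of -0.68 (SE 0.04). Of the exonic bases of MAGI1-IT1, 212 are shared with an exon of the host, so some of its counts could belong to either. Near the other end of MAGI1, at 679 kb, the lncRNA gene ENSG00000270059 had 9, 9 and 10 counts in siCTRL and 1, 3 and 1 in siSFPQ (log2 fold change -2.41, SE 0.85, edgeR adjusted p 0.0200). Its ratio to MAGI1 did not pass the ratio test described further on (adjusted p 0.113). That gene too was picked out after its values were seen.

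KIRREL1-IT1, which follows the first exon of the cell adhesion gene KIRREL1, had 0, 1 and 3 counts in siCTRL and 44, 25 and 18 in siSFPQ (log2 fold change 4.32, SE 0.67). EIPR1-IT1 lies in EIPR1, whose protein binds the EARP and GARP tethering complexes, and had 0, 4 and 0 counts against 38, 26 and 32 (log2 fold change 4.46, SE 0.65). In both, the lowest siSFPQ library stood well above the highest siCTRL library. All siCTRL counts of EIPR1-IT1 came from 1 library, and its log2 fold change was 8.01 without siCTRL replicate 2 and 3.92 to 4.59 without any other library. That of KIRREL1-IT1 was 5.55 without siCTRL replicate 3. Their hosts fell, KIRREL1 by 0.90 and EIPR1 by 0.50 on the log2 scale. ERI3-IT1, inside the exonuclease family gene ERI3, had 7, 5 and 10 counts in siCTRL and 27, 27 and 11 in siSFPQ (log2 fold change 1.55, SE 0.50). The library siSFPQ replicate 3 stood barely above the control range, and the call was lost without siSFPQ replicate 1 or 2 (highest edgeR adjusted p 0.0846). ERI3 fell with a log2 fold change of -1.37 (SE 0.05). RSF1-IT2, in a gene for a chromatin remodelling subunit, had 5, 3 and 6 counts and then 22, 22 and 27 (log2 fold change 2.31, SE 0.50). RSF1-IT1, which starts 81.3 kb into the same host where RSF1-IT2 starts 102 kb into it, had 0, 14 and 1 counts and then 11, 6 and 11, so its groups overlapped (log2 fold change 0.88, SE 0.80, edgeR adjusted p 0.407). RSF1-IT1 is outside the naming rule and was added, its values known, as another member in this host. ST7-OT4 had 3, 0 and 3 counts and then 13, 12 and 10 (log2 fold change 2.47, SE 0.79), and shares 1160 exonic bases with other genes on its strand. Its call was lost without siSFPQ replicate 1 (edgeR adjusted p 0.0555).

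Other members rose inside hosts that were not called lower. ZNRF3-IT1 lies at chr22:28992721-29018620, 109 kb into ZNRF3, an E3 ubiquitin ligase that removes Wnt receptors from the cell surface. It had 0, 2 and 3 counts in siCTRL and 50, 44 and 47 in siSFPQ (log2 fold change 4.71, SE 0.52, edgeR adjusted p 2.18e-09). ZNRF3 had 1214, 1355 and 1194 counts and then 1128, 1174 and 1284, overlapping ranges with a log2 fold change of -0.07 (SE 0.06). KLF7-IT1, in the gene of the Krüppel-like transcription factor KLF7, had 15, 2 and 9 counts and then 91, 57 and 86 (log2 fold change 3.15, SE 0.36). HS1BP3-IT1 had 12, 24 and 16 counts and then 120, 92 and 103 (log2 fold change 2.59, SE 0.26). The log2 fold change was 5.39 for ZNRF3-IT1 without siCTRL replicate 3 and 3.79 for KLF7-IT1 without siCTRL replicate 1. In KLF7-IT1 and HS1BP3-IT1 the groups stood far apart, while the hosts moved little, KLF7 by 0.10 and HS1BP3 by 0.41 on the log2 scale, upward. FOXP1-IT1, 9.52 kb into the gene of the forkhead transcription factor FOXP1, had 8, 7 and 5 counts and then 31, 47 and 40 (log2 fold change 2.53, SE 0.40), and FOXP1 rose by 0.24. A stretch of 535 bases of FOXP1-IT1 overlaps an exon on the other strand. N4BP2L2-IT2 had 12, 10 and 21 counts and then 39, 40 and 47 (log2 fold change 1.54, SE 0.34), with a host at -0.07. RASA3-IT1, in the gene of a Ras GTPase-activating protein, had 1, 3 and 2 counts and then 11, 13 and 8 (log2 fold change 2.34, SE 0.78), a call lost without siSFPQ replicate 1 or 2 (highest edgeR adjusted p 0.0711).

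A set of 5 genes called higher had no count in any siCTRL library. RNF216-IT1, in the gene of the E3 ubiquitin ligase RNF216, had 13, 10 and 14 counts in the siSFPQ libraries, which against a floor of 3 counts in each library is at least 4.11-fold higher. E2F3-IT1, in the gene of the cell cycle transcription factor E2F3, had 7, 9 and 7 counts, at least 2.54-fold higher. For TCF7L1-IT1 (3, 6 and 5 counts) the bound was at least 1.54-fold higher, for DNM3-IT1 (5, 2 and 6) at least 1.45-fold and for STX18-IT1 (5, 5 and 2) at least 1.33-fold. All 5 passed the edgeR test, with adjusted p from 6.74e-05 for RNF216-IT1 to 0.0159 for STX18-IT1, and only the bound of RNF216-IT1 exceeds a log2 fold change of 1.5. The hosts RNF216, TCF7L1, DNM3 and STX18 fell, by 0.65, 1.64, 1.29 and 1.01 on the log2 scale, and E2F3 was at -0.03 (SE 0.05).

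The one remaining gene called higher is of another kind. ANXA2R-OT1 starts 24.3 kb upstream of the short gene ANXA2R and runs across it, and had 168, 188 and 178 counts in siCTRL and 221, 272 and 207 in siSFPQ (log2 fold change 0.38, SE 0.12, edgeR adjusted p 0.0107). The call was lost without siSFPQ replicate 2 (adjusted p 0.133). ANXA2R had 0, 1 and 0 counts and then 23, 10 and 12.

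The 3 genes called lower differed in what their hosts did. ALMS1-IT1 (chr2:73456764-73459482, plus strand), inside the gene of the centrosomal protein ALMS1, had 280, 278 and 275 counts in siCTRL and 75, 89 and 72 in siSFPQ, groups that lay far apart (log2 fold change -1.82, SE 0.13, edgeR adjusted p 1.74e-13). ALMS1 itself fell only by 0.33 (SE 0.05) on the log2 scale. THBS1-IT1, a single-exon gene within THBS1, the gene of the matrix glycoprotein thrombospondin-1, went from 48, 30 and 44 counts to 14, 20 and 8 (log2 fold change -1.54, SE 0.36). THBS1 had 43193, 43144 and 42300 counts and then 10936, 12539 and 11470, a log2 fold change of -1.89 (SE 0.04), so inner gene and host fell together. BACH1-IT1, inside the gene of the heme-responsive repressor BACH1, had 30, 37 and 34 counts and then 16, 17 and 24 (log2 fold change -0.83, SE 0.33, edgeR adjusted p 0.042), while BACH1 rose by 0.35. That call was lost under 8 alternatives, DESeq2 and the fit with library size alone among them. BACH1-IT2 starts 176 kb into the host, where BACH1-IT1 starts 158 kb into it, and had 21, 13 and 10 counts and then 6, 12 and 7, with overlapping ranges (log2 fold change -0.81, SE 0.53, edgeR adjusted p 0.225). It too is outside the naming rule and was added, its values known, for its place in the same host.

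Of the 10 members with the highest mean counts, 5 did not pass the test for their own counts. MUC20-OT1 had 1324, 1341 and 1264 counts in siCTRL and 1472, 1414 and 1186 in siSFPQ, so that the siSFPQ range enclosed the control range (log2 fold change 0.05, SE 0.07). GABPB1-IT1, 0.547 kb into the gene of a GA-binding protein subunit, had 843, 1013 and 868 counts and then 978, 1030 and 975 (log2 fold change 0.13, SE 0.07). ANKRD10-IT1 had 239, 228 and 229 counts and then 261, 261 and 217 (log2 fold change 0.08, SE 0.11). In each the groups overlapped. NPTN-IT1 had 122, 119 and 127 counts and then 111, 142 and 91 (log2 fold change -0.10, SE 0.16). SOS1-IT1 had 76, 87 and 103 counts and then 60, 72 and 63 (log2 fold change -0.45, SE 0.19, edgeR adjusted p 0.0563). All 1254 exonic bases of SOS1-IT1 are also exonic bases of its host SOS1. Its reads could belong to either gene and are not a readout of an intron.

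The hosts as a group went the other way from the inner genes. Of the 56 tested hosts of tested members, 15 were called higher and 33 lower (58.9%), where all protein-coding genes had 28.0% higher and 30.9% lower. The median log2 fold change was -0.25 for these hosts and 0.64 for the 61 members, or 0.55 with the 5 genes at 0 in siCTRL set to their bounds, beside 0.02 over all tested genes. Without siCTRL replicate 3 the members' median was 0.41. The filter bears on the members' median, since 14 of the 61 reached 10 counts in siSFPQ alone and 3 in siCTRL alone. Of the hosts of the 20 members called higher, 12 fell, 5 rose and 3 were not called. Of the 35 tested hosts of members not called, 20 fell, 10 rose and 5 were not called. By calls, a falling host was thus about as frequent whether or not the member rose. The median log2 fold change was -0.58 in hosts of members called higher and -0.15 in hosts of members not called. Other lncRNA genes inside a protein-coding gene on its strand, 545 of them tested, had 23.5% higher and 8.26% lower with a median of 0.31. All other lncRNA genes, 7129 tested, had 17.0% and 12.3% with a median of 0.13. These shares were not compared by a test.

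**Figure D2:**
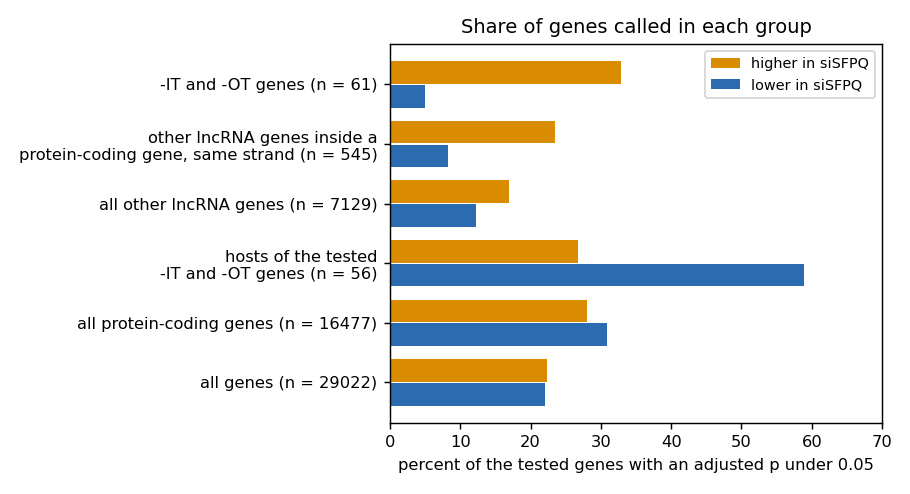
Bars give the percent of tested genes called higher (orange) or lower (blue) in siSFPQ at an adjusted p under 0.05, with the number tested in each group. The -IT and -OT genes had 32.8% higher and 4.92% lower, whereas their hosts had 26.8% higher and 58.9% lower.

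To set each member against its host in the same library, the counts of the inner gene were tested with the log of the host count as an offset, so that a change in the ratio of inner gene to host is what the test measures. The fit took 1600 pairs, 55 of them members and the rest every other gene lying inside a longer protein-coding gene on its strand, where the host had at least 10 counts in every library. The ratio rose in 22 of the 55 members (40.0%) and fell in 4 (7.27%), where over all 1600 pairs it rose in 25.7% and fell in 6.69%. The filter on low counts bears on this too. Of these members, 13 had reached 10 counts in siSFPQ alone, and they account for 10 of the 22 rises. Of the 32 with at least 10 counts in both groups, the ratio rose in 11 and fell in 4. The share over all pairs was not recomputed under this filter. The median log2 change of the ratio was 1.09 over the members and 0.40 over the other 1545 pairs.

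Among genes with siCTRL counts, the largest ratio changes with all libraries in the fit were those of AGAP1-IT1, with a log2 change of 7.79 (SE 0.25), and GRK5-IT1, with 6.13 (SE 0.39). The log2 change of the ratio was 5.19 for KIRREL1-IT1 (SE 0.65), 4.95 for EIPR1-IT1 (SE 0.65), 4.79 for ZNRF3-IT1 (SE 0.55) and 4.32 for MAGI1-IT1 (SE 0.44). These rest on few siCTRL counts, and without siCTRL replicate 2 the change of EIPR1-IT1 was 8.22, above that of AGAP1-IT1, while without siCTRL replicate 3 those of KIRREL1-IT1 and ZNRF3-IT1 were 6.36 and 5.49. Without siCTRL replicate 1 that of KLF7-IT1 was 3.70, beside 3.04. All 19 members inside their hosts that were called higher also rose against the host, though RASA3-IT1 (edgeR adjusted p 0.0414) lost that call whenever one of 5 libraries was left out. A ratio can rise because the inner gene rose, because the host fell, or both, and 3 members rose in ratio without a change of their own that passed the test. RPS6KA2-IT1, inside the gene of a ribosomal S6 kinase, had 12, 17 and 8 counts and then 4, 8 and 3, while RPS6KA2 fell from 891, 1047 and 1021 to 98, 122 and 125, so the ratio rose by 1.78 (SE 0.65, edgeR adjusted p 0.0296). That call was lost without siCTRL replicate 3 or siSFPQ replicate 1 or 2 (highest adjusted p 0.257). NALF1-IT1, with 0 to 5 counts in each library, rose by 3.20 (SE 1.26) against a host that fell by 2.37, with an edgeR adjusted p of 0.0454, and lost the call without siCTRL replicate 3 or siSFPQ replicate 1 or 2 (highest adjusted p 0.11). GABPB1-IT1 rose by 0.61 (SE 0.13) against a host that fell by 0.48.

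The ratio fell in MUC20-OT1 (log2 change -1.81, SE 0.15), ALMS1-IT1 (-1.5, SE 0.19), BACH1-IT1 (-1.17, SE 0.37) and ANKRD10-IT1 (-0.68, SE 0.17). The ratio call of BACH1-IT1 was lost without siSFPQ replicate 1 or 2 (highest edgeR adjusted p 0.0667). For MUC20-OT1 the host was the one that changed, since the mucin gene MUC20 went from 35, 65 and 62 counts to 206, 190 and 152, and the genes share 1851 exonic bases. ANKRD10 likewise rose by 0.76 (SE 0.05) while the siSFPQ counts of ANKRD10-IT1 lay on both sides of its control range. For THBS1-IT1, whose counts fell, the ratio changed by 0.33 (SE 0.39, edgeR adjusted p 0.585).

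**Figure D3:**
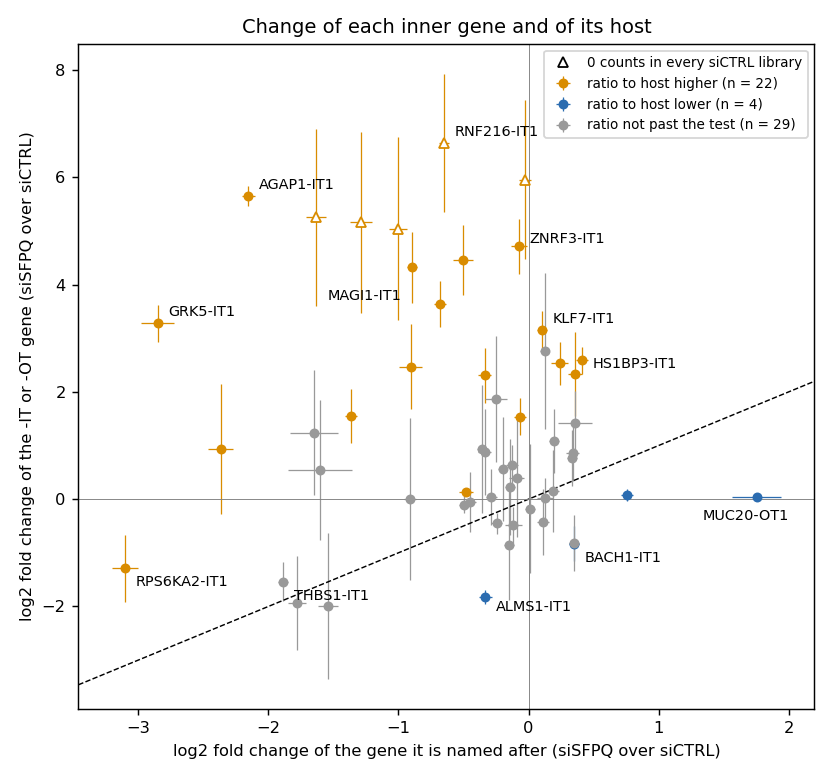
Each point is one of 55 members, with the host's log2 fold change on the x axis and the member's on the y axis, and bars of 1 SE; the dashed line marks equal change. Orange points (22) are members whose ratio to the host rose and lie above the line, blue points (4) fell, and open triangles are the 5 members at 0 counts in every siCTRL library, whose heights depend on the prior count.

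Per base, the members inside their hosts stayed well below them in most cases. Counts per kb of exon, scaled to library size (CPM per kb), were taken for each inner gene as a percent of the same density of its host. The median was taken over 52 tested members inside the host on its strand, with hosts above a floor on the mean siCTRL count. It was 2.44% in siCTRL and 7.57% in siSFPQ. The filter on low counts bears on this difference, since 14 of the 61 tested members reached 10 counts in siSFPQ alone and 3 in siCTRL alone. Members that only overlap the host were left out, among them MUC20-OT1 (942% and 288%) and ANXA2R-OT1 (18732% and 539%), which exceeded their hosts. The siCTRL value of ANXA2R-OT1 rests on host counts of 0, 1 and 0 and has no precision. In the 19 members called higher inside their hosts, a choice that fixes the direction, the median was 1.38% and 15.0%. No member of the 19 exceeded its host in siCTRL and 2 did in siSFPQ, AGAP1-IT1 (from 3.26% to 739%) and GRK5-IT1 (from 23.9% to 1709%). HS1BP3-IT1 came next, going from 17.9% to 81.4%, whereas ALMS1-IT1 fell from 66.8% to 23.7%. These are densities over annotated exons, and reads from the rest of the intron are not counted in them.

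Place in the host was set out for the 55 tested members that lie inside it on its strand. Of 28 members starting in the first 50 kb, 9 were higher and 1 lower, with a median log2 fold change of 0.81. Of 12 between 50 and 100 kb, 6 were higher and 1 lower, with a median of 2.18. Beyond 100 kb, 4 of 15 were higher (ZNRF3-IT1, RNF216-IT1, RSF1-IT2 and ERI3-IT1) and 1 lower, with a median of -0.45. Past 80% of the host span, 1 of 9 was higher, with a median of -0.10, and before that point 18 of 46 were higher, with a median of 1.01. Over the 55 genes the log2 fold change had a Spearman correlation of -0.20 and a Pearson correlation of -0.28 with the distance in kb, too weak in counts this sparse to be read as a relation. The points share the same 6 libraries and differ in depth. The filter on low counts bears on these counts and medians, since 10 of the 20 members called higher reached 10 counts in siSFPQ alone. Over all tested genes 22.4% were called higher and 22.1% lower.

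**Figure D4:**
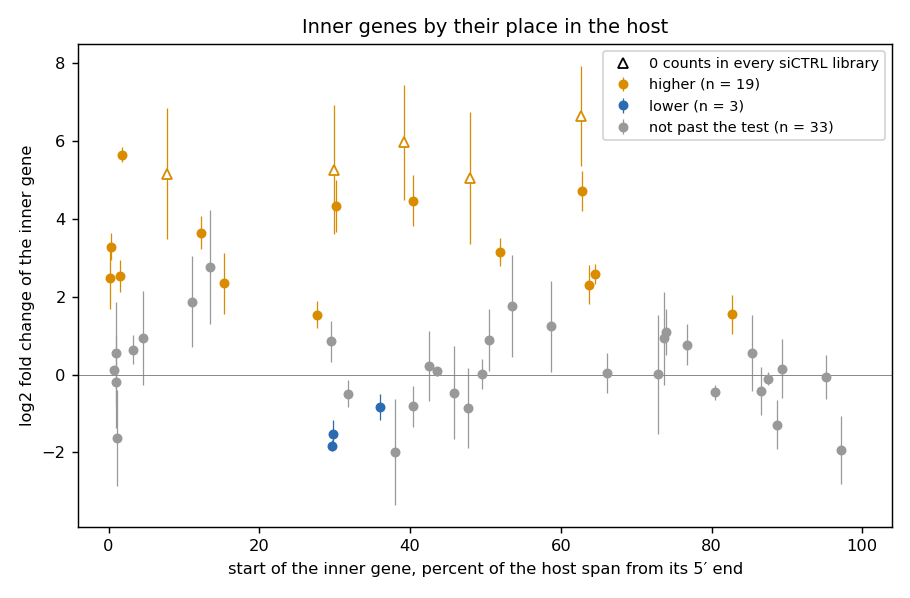
Each point is one of the 55 tested members inside the host, placed by its start as a percent of the host span from the 5′ end, with its log2 fold change and 1 SE. Orange points were called higher (19), blue lower (3) and grey not called (33), and past 80% of the span only ERI3-IT1 is orange.

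Host length was also set beside the changes. In the 27 members whose host was longer than 134.191 kb, the median span of the tested hosts, 12 were higher and 2 lower, and the hosts had a median log2 fold change of -0.68. In the 28 members with shorter hosts, 7 were higher and 1 lower, and the hosts had a median of -0.07. The median over the members themselves was 0.93 in long and 0.70 in short hosts. The same limit of the filter holds for these counts and medians. Over all tested genes 22.4% were called higher and 22.1% lower, and shares over other long and short genes were not taken.

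Not every strongly falling host had counts to offer. NEGR1-IT1 had 0, 0 and 2 counts in siCTRL and none in siSFPQ, in a host at a log2 fold change of -5.82, and GPC5-IT1 had 0, 0 and 3 and then none, in a host at -4.15. PLCB1-IT1 had a single count, in siSFPQ, with PLCB1 at -4.01. TSPAN9-IT1, by contrast, had none in siCTRL and 4, 1 and 3 in siSFPQ, with TSPAN9 at -2.50. At these counts no difference was detectable in any of the 4. RERG-IT1, 97.1% of the way along RERG, had 8, 12 and 4 counts and then 3, 2 and 1 (log2 fold change -1.94, SE 0.87, edgeR adjusted p 0.0708), beside a host at -1.78. These 5 genes were picked out after their values were seen, for their hosts' change.

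Excised intron RNA and short polyadenylated nuclear RNA are removed by the debranching enzyme, the nuclear exosome and its NEXT and PAXT adaptors, with cap-binding proteins and the exonuclease XRN2 acting in nuclear RNA turnover beside them. Of a list of 28 genes of nuclear RNA decay, which covers all of these, 11 were called higher (39.3%), 6 lower (21.4%) and 11 not called, where protein-coding genes had 28.0% higher and 30.9% lower. The changes were small, from -0.26 to 0.51 with a median of 0.04 on the log2 scale. The 4 largest among those that passed were rises of ZCCHC8, a NEXT scaffold subunit, by 0.51, and of the exosome subunits EXOSC4 by 0.45, EXOSC5 by 0.42 and EXOSC2 by 0.27. Other exosome subunits went the other way. The 6 called lower included EXOSC3 (-0.20) and EXOSC6 (-0.11), and the largest fall was that of MPHOSPH6 (-0.26). The part of these changes in the counts of the inner genes was not tested.

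Whether the counts follow strand bears on what an -IT count is. Among annotated small RNA genes lying in introns of hosts with at least 6000 counts in total, 62 of 289 genes of the class misc_RNA on the host's strand (21.5%) had at least 10 counts, against 41 of 222 on the other strand (18.5%). For snRNA genes these shares were 14.5% of 228 and 13.5% of 222. Counts on these small RNA genes were thus about as common opposite to the host as along it, with medians of 1 to 2 counts. The class misc_RNA holds 7SL copies such as RN7SL749P, among which reads could have been shared. This check therefore cannot decide the strand of reads from introns. Although the library kit was a stranded one, the reads counted on an -IT gene cannot be tied to its strand from these counts.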

How the data were processed

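Total RNA of U-2 OS cells was made into TruSeq stranded mRNA libraries by the authors, sequenced as paired-end reads, checked with FastQC and aligned with STAR 2.7.9a to the Ensembl GRCh38 genome. The authors deposited raw counts per gene, not normalized. The strand setting of the counting is not given in the sources used here. Gene names and positions came from GENCODE release 44 (60463 of 60664 IDs, 99.7%), and sequences of gene ends from the GRCh38 genome, not the authors' own annotation release.

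Counts were tested with edgeR 4.0.16 (TMM, quasi-likelihood, siSFPQ over siCTRL, no covariates) on genes with at least 10 counts in total, with Benjamini-Hochberg adjustment. Normalized counts are counts divided by the effective library size, scaled to its geometric mean. Ratios used the log host count as offset, which treats the host count as known without error. Fold changes of genes at 0 in siCTRL are given as bounds against 3 counts in each library. Totals of 43469321 to 47119203 counts make 3 counts equal to 0.0637 to 0.0690 CPM. The functions were tested on simulated data. Alternatives used DESeq2 1.42.0, limma 3.58.1, other filters and scalings, and each library left out.

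Named members were those past an adjusted p of 0.05 and a log2 fold change of 1.5 in either direction, those whose ratio passed, and the 10 with the highest mean; others are marked where named. ANXA2R-OT1 entered by the last of these. The members, the decay list and the markers were chosen with earlier results of these data known.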

Additional observations from a re-analysis of the deposited data

How the results depend on the processing

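Across the named genes, 560 of 597 values under alternatives kept their direction and their side of the threshold, 31 lost the call, 4 gained one and 2 reversed. Those 2 were never called, MUC20-OT1 at -0.0246 without siSFPQ replicate 1 (range with a library left out -0.0246 to 0.155) and NPTN-IT1 at 0.0561 without siSFPQ replicate 3 (range -0.284 to 0.0561). The count of members called higher was 15 to 22 with a library left out, 16 under edgeR's own expression filter, 22 with library size alone and 20 in the DESeq2 fit, beside 20, and the count called lower was 2 to 4. The members' median of 0.64 became 0.81 under edgeR's own filter, 0.92 with no filter, 0.86 for members inside the host sharing no exonic base with it, and 0.41 (without siCTRL replicate 3) to 0.70 with a library left out. The hosts' median, -0.45 over the 126 tested hosts of all 144 members, became -0.39 with library size alone, -0.31 for the hosts of that subset, and -0.49 to -0.41 with a library left out. Counts of ratios that rose ran from 17 to 24 with a library left out. Library size alone moved the calls over all genes to 7622 higher and 5502 lower, from 6514 and 6421. Deviations of same-numbered libraries correlated at 0.0019 to 0.0153, so the replicate numbers did not pair the libraries. With the replicate block, 20 members were higher and 2 lower, and 20 ratios rose and 4 fell. The ratio calls of GABPB1-IT1 and ANKRD10-IT1 were lost in limma on log2 ratios. Depth limits the 83 members under 10 counts, for which no change could be tested.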
